A study of Mus musculus with 4 samples.

Results

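The interferon response genes are a group of 40 genes that cells switch on after an interferon signal, out of 47729 genes listed in each library of this mouse lung series. They were listed by name, with earlier results of these data known, and fall into 3 classes. The type 1 interferon induced class has 31 genes, the gamma-induced GTPase class has 6 and the antigen processing class has 3. All 40 were found in the files and all 40 passed the expression filter, with no member at 0 in any library.

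Whole-lung RNA came from mice of the strain labelled BL/6 with the genotype labelled Control (Rosa), and each group had 2 libraries. Normoxic replicate 1 was a pool of 3 females and Normoxic replicate 2 a pool of 1 female and 2 males. Each Sugen-Hypoxic replicate was a pool of 2 males exposed to hypoxia and Sugen, an inhibitor of VEGF receptors; rodents treated this way are a model of pulmonary hypertension. The series concerns mutation of KCNK3, a potassium channel gene, but every library used here was labelled as of the control genotype. The library titles also carry the name MSX1, which the labels do not explain. Age, dose and length of exposure were not given in the sources used here. The treated pools were all male, Sugen was not given apart from hypoxia, and the effects of treatment and of sex on a gene cannot be told apart where the sexes also differ.

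Interferons are secreted proteins made when cells sense foreign or misplaced nucleic acid, or when lymphocytes are activated. Type 1 interferons, alpha and beta, act through a factor complex that includes STAT2 and IRF9 and binds the interferon-stimulated response element, ISRE. Interferon gamma, made mainly by T and NK cells, acts through the gamma-activated site, GAS. In lung, epithelium, endothelium and resident leukocytes all carry interferon receptors and keep a low level of these genes at rest.

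Gene counts summed to between 57319562 and 67135829 per library, and levels are given as counts per 1000000 gene counts (CPM). The libraries carried lung markers, with the surfactant gene Sftpc at 11239 to 12003 CPM, while the extraction text names another organ, kidney. The kidney marker Umod was at 0 in 3 of the 4 libraries and at 0.122 CPM in the other. Of 18783 genes tested, 5.51% were called higher and 6.01% lower in the treated pools at an adjusted p under 0.05 (edgeR quasi-likelihood test, Benjamini-Hochberg), and the median log2 fold change was -0.00.

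Promoter sequences are shown to place the members beside the 2 elements that interferon signals use. RefSeq promoter windows of GRCm38.p6, 250 bases before to 50 after the start site, were matched for 30 of the 40 members. They were searched on both strands for an ISRE core (GAAA, any 2 bases, GAAA) and a GAS core (TTC, any 3 bases, GAA). An ISRE match lay in a window of 17 of the 30 member genes (56.7%), against 3.99% of all 27025 genes with a window. A GAS match lay in 8 of the 30 (26.7%), against 9.55% of all genes. The ISRE letters were found in 12 of 22 type 1 induced genes, in 5 of 5 gamma-induced GTPase genes and in 0 of 3 antigen processing genes, whose own count of GAS matches was 1. The members are known interferon targets, so these shares describe the list and are not a finding about the treatment, and absence of the letters says nothing about a factor's binding.

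The 6 promoters below are those of the members past the threshold that had a match, followed by those of the 3 other members with a match and the highest mean CPM. Capitals mark ISRE and GAS matches. Each runs 5′ to 3′ on the gene's strand.
Oas3: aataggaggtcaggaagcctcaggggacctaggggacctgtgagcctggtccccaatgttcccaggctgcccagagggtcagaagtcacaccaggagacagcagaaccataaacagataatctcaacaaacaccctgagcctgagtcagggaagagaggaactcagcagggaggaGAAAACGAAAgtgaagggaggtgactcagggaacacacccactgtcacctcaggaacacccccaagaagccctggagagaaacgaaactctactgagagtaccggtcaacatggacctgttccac
Bst2: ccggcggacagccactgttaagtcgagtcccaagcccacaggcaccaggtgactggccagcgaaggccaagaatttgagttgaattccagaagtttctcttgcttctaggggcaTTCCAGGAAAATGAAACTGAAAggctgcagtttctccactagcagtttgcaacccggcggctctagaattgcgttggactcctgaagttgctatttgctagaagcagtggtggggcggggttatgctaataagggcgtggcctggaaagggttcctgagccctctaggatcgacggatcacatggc
Ddx58: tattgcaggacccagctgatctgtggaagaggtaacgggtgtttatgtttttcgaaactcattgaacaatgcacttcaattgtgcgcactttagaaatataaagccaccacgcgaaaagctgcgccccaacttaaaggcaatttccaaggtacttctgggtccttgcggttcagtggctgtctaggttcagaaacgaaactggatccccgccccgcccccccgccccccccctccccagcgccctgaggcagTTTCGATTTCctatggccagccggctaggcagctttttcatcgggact
Ifitm3: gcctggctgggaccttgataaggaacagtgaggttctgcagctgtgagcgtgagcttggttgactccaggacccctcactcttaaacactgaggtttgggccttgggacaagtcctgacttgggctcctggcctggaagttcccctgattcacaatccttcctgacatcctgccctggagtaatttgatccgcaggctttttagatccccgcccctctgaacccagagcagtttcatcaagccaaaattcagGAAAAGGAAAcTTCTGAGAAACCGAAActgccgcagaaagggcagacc
Gbp2: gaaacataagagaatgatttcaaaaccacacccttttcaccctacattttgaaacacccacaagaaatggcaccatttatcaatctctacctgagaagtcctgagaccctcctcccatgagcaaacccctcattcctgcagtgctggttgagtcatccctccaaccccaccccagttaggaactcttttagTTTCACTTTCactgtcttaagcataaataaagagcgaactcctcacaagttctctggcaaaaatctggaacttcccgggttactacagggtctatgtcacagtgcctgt
Gbp7: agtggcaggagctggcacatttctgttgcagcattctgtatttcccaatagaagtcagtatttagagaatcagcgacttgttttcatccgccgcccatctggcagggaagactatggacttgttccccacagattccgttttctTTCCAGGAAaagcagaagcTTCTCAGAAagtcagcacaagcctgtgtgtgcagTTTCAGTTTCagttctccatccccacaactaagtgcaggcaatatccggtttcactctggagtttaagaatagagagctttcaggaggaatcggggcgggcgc

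The Oas3 window is chr5:120777610-120777909 on the minus strand, and its ISRE match begins 75 bases before the start site. The Bst2 window, chr8:71537423-71537722 on the minus strand, holds a GAS match that runs into 2 overlapping ISRE matches. The Ddx58 window, chr4:40239776-40240075 on the minus strand, has its ISRE match just after the start, at bases 3 to 12. The Ifitm3 window is chr7:141010695-141010994 on the minus strand, and its 2 ISRE matches and 1 GAS match also lie after the start. The windows of Gbp2 (chr3:142620413-142620712) and Gbp7 (chr3:142530086-142530385), both on the plus strand, each hold 1 ISRE match, and Gbp7 has 2 GAS matches upstream of it. Isg15, whose window is not printed, held 3 overlapping ISRE matches, from 78 to 57 bases before the start.

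In the treated lungs few of the interferon response genes passed the test. Of the 40 members 1 was higher, Ddx58, and 3 were lower, Oas3, Dhx58 and Bst2, all 4 of them in the type 1 induced class. That is 4 of 40, against 11.5% of all genes called in either direction, a share near the background. The members' log2 fold changes (Sugen-Hypoxic over Normoxic) ran from -1.78 to 0.48 with a median of -0.08. No gamma-induced GTPase and no antigen processing gene passed, and 11 members, all of the type 1 class, had an unadjusted p under 0.05, against 5657 of the 18783 genes tested, a share near the background. P-values here set the difference between groups against the spread of these 4 pools within their groups. An exact permutation test of 2 libraries against 2 cannot go below 0.333, so none is given.

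**Figure D1:**
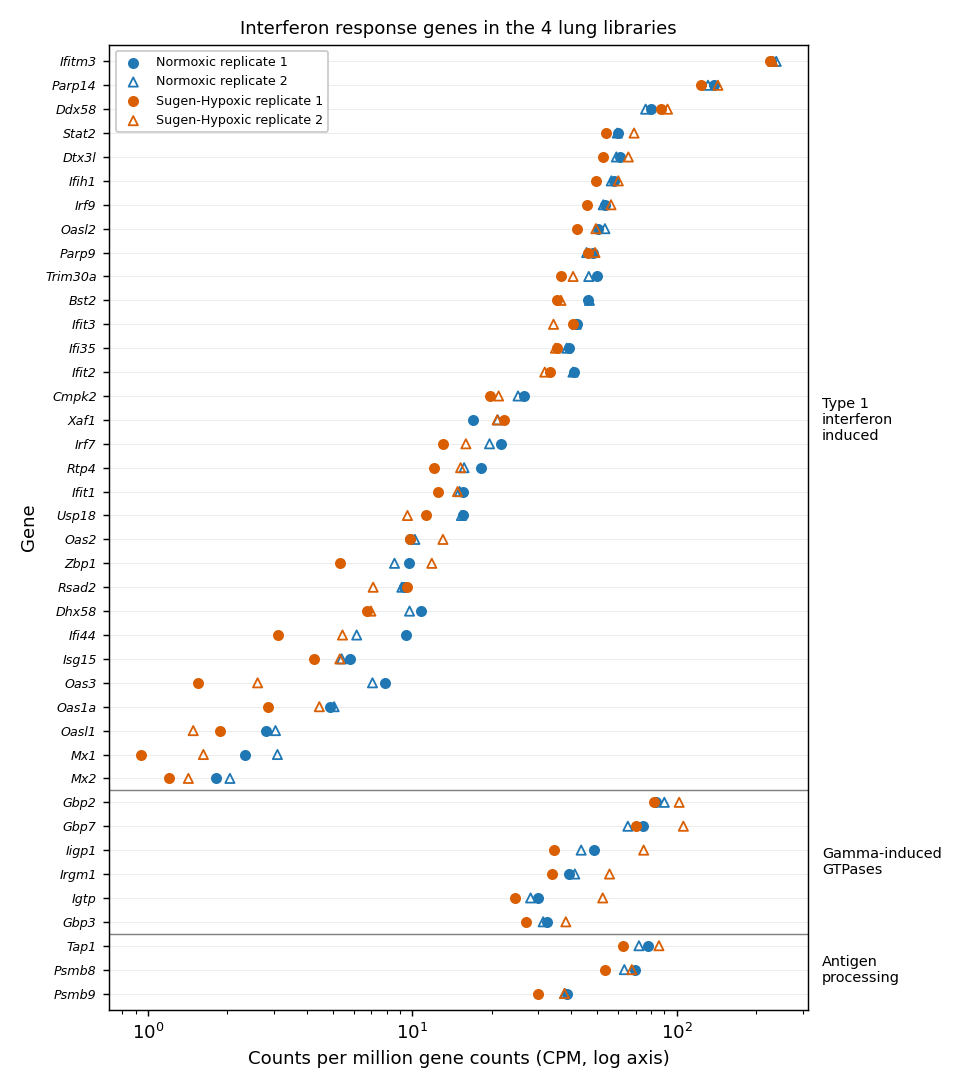
Level of each of the 40 genes in each library, in CPM on a log axis, with the genes ordered by mean level within their class. Blue marks are Normoxic and orange marks Sugen-Hypoxic pools, filled circles replicate 1 and open triangles replicate 2. The orange circles of replicate 1 lie at the low end for 30 of the 40 genes, against 6408 of the 18783 genes tested. The blue marks of the Normoxic pools mostly lie close together.

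The members that detect viral RNA in the cytosol held the 1 gene called higher and 1 of those called lower. Ddx58 (ENSMUSG00000040296, GRCm38 chromosome 4, 40203773 to 40239828), which encodes the RNA sensor RIG-I, was at 79.8 and 76.4 CPM in the Normoxic replicates and 87.0 and 92.4 CPM in the Sugen-Hypoxic replicates. Both treated pools were above both Normoxic pools. Its log2 fold change was 0.27 ± 0.06 (SE) with adjusted p = 0.0445. Its call depended on the scaling: upper-quartile factors gave 0.22 (adjusted p = 0.0740) and unscaled library sizes 0.20 (adjusted p = 0.0883).

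Dhx58 (ENSMUSG00000017830, chromosome 11, 100694884 to 100704271) encodes LGP2, a relative of RIG-I without the signalling domain. It stood at 10.8 and 9.77 CPM in the Normoxic pools and 6.77 and 6.98 CPM in the treated pools, with no overlap. The log2 fold change was -0.52 ± 0.12 (adjusted p = 0.0487), and with RLE factors, limma-voom or unstranded counts the adjusted p was 0.0513, 0.0508 and 0.0778. The third sensor of this family, Ifih1, which encodes MDA5, was at 57.9 and 56.7 CPM in normoxia and 49.5 and 60.2 CPM after treatment. Its treated pools lay on either side of the Normoxic pair, and the gene did not pass, at 0.01 on the log2 scale (adjusted p = 0.976). Zbp1, a sensor of left-handed nucleic acid, was at 9.70 and 8.57 CPM in normoxia and 5.34 and 11.9 CPM after treatment, the widest treated ratio of all members, 2.22-fold between replicate 2 and replicate 1.

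The oligoadenylate synthetases make a small messenger that activates RNase L, which cuts viral and cellular RNA. Oas3 (ENSMUSG00000032661, chromosome 5, 120753098 to 120777661) had the largest fitted change among the 40 members. It was at 7.88 and 7.08 CPM in the Normoxic pools and at 1.55 and 2.60 CPM in the treated pools, which is 529 and 412 reads against 89 and 170. All treated values lay far below the Normoxic ones. The log2 fold change was -1.78 ± 0.27, a 3.43-fold fall, with adjusted p = 0.0177. Its value was -1.47 without Sugen-Hypoxic replicate 1 and -2.18 without replicate 2.

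The neighbours of Oas3 on chromosome 5 did not pass. Oas2, at 9.85 and 10.2 CPM in normoxia and 9.80 and 13.1 CPM after treatment, had a log2 fold change of 0.26 ± 0.15 (adjusted p = 0.310). Oas1a, at 4.90 and 5.07 CPM against 2.84 and 4.45 CPM, had -0.38 ± 0.24 (adjusted p = 0.342). These 3 genes lie within 177 kb, and their fitted values ran from -1.78 to 0.26. The related genes Oasl1 and Oasl2, 41.0 kb from end to end, had log2 fold changes of -0.73 ± 0.24 and -0.12 ± 0.09 (adjusted p = 0.105 and 0.408). Oasl2 was the more abundant, at 50.5 and 53.6 CPM in normoxia against 42.0 and 49.5 CPM after treatment.

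Among the effectors that act at membranes, Bst2 (ENSMUSG00000046718, chromosome 8, 71534255 to 71537456) fell by a small and even amount. It encodes tetherin, which holds budding virus at the cell surface and is also a marker of plasmacytoid dendritic cells. It was at 46.2 and 46.8 CPM in the Normoxic pools and 35.3 and 36.5 CPM in the treated pools, so the pools of each group were close and the groups apart. The log2 fold change was -0.30 ± 0.06 with adjusted p = 0.0298. Ifitm3, which blocks virus entry from endosomes, was the most abundant member at 227 and 238 CPM in normoxia and 226 and 231 CPM after treatment. Its groups overlapped, with a log2 fold change of 0.04 ± 0.06 (adjusted p = 0.662). Scaled to exon length, Ifitm3 also led the list in normoxia with 1132 transcripts per 1000000 (TPM), followed by Bst2 at 170 and Gbp2 at 114.

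The IFIT proteins bind viral RNA and block its translation. Ifit2 was at 40.9 and 40.6 CPM in normoxia and 33.1 and 31.7 CPM after treatment, and the fitted difference, -0.26 ± 0.06 on the log2 scale, missed the threshold (adjusted p = 0.0587). It passed with upper-quartile factors (adjusted p = 0.0373) and with unscaled library sizes (0.0275). Ifit1 and Ifit3 had log2 fold changes of -0.09 ± 0.11 and -0.09 ± 0.10 (adjusted p = 0.601 and 0.572). The 3 genes sit within 99.3 kb on chromosome 19. For the dynamin-like Mx GTPases the log2 fold changes were -1.01 ± 0.33 for Mx1 and -0.49 ± 0.25 for Mx2, at 0.942 to 3.09 CPM, and neither passed (adjusted p = 0.111 and 0.252). The C57BL/6 background is known to carry a defective Mx1. Rsad2, which encodes viperin, Cmpk2, its neighbour on chromosome 12, and Trim30a, a ubiquitin ligase, had values of -0.08, -0.27 and -0.25 (adjusted p = 0.805, 0.0852 and 0.0884).

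The groups overlapped for 2 of the 3 factors of the type 1 signal among the members, against 7273 of the 18783 genes tested. Stat2 was at 60.1 and 59.7 CPM in normoxia and 53.9 and 69.1 CPM after treatment, and Irf9 at 53.6 and 52.8 CPM against 45.7 and 56.5 CPM. In both genes the Normoxic pair was tight and the treated pair spanned it, with log2 fold changes of 0.11 ± 0.11 and 0.01 ± 0.10 (adjusted p = 0.578 and 0.960). Irf7, which amplifies alpha interferon production and is itself strongly induced, was at 21.6 and 19.6 CPM in normoxia and 13.1 and 16.0 CPM after treatment. Its fitted difference, -0.44 ± 0.12 on the log2 scale, did not pass (adjusted p = 0.0712), though it did with DESeq2 (adjusted p = 0.0299).

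Usp18 removes the ubiquitin-like protein ISG15 from targets and dampens the type 1 receptor. It was at 15.5 and 15.4 CPM in normoxia and 11.3 and 9.60 CPM after treatment, without overlap. Its log2 fold change was -0.49 ± 0.12 with adjusted p = 0.0526, and it passed with DESeq2 (0.0154), limma-voom (0.0475), upper-quartile factors (0.0404), unscaled library sizes (0.0317) and unstranded counts (0.0394). Isg15 itself had -0.17 ± 0.17 (adjusted p = 0.565), at 4.24 to 5.84 CPM in the 4 pools. Parp14, Parp9 and Dtx3l, enzymes of ADP-ribosylation and ubiquitin transfer that lie within 140 kb on chromosome 16, had log2 fold changes of 0.05, 0.09 and 0.04 (adjusted p = 0.711, 0.394 and 0.812). Parp14 was at 138 and 131 CPM in normoxia and 124 and 143 CPM after treatment, and Dtx3l at 61.1 and 59.2 CPM against 52.7 and 65.7 CPM. The remaining type 1 members, Ifi44, Ifi35, Xaf1 and Rtp4, ran from -0.81 to 0.25 with adjusted p from 0.169 to 0.470. Ifi44 differed within normoxia, from 9.47 CPM in replicate 1 to 6.17 CPM in replicate 2.

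**Figure D2:**
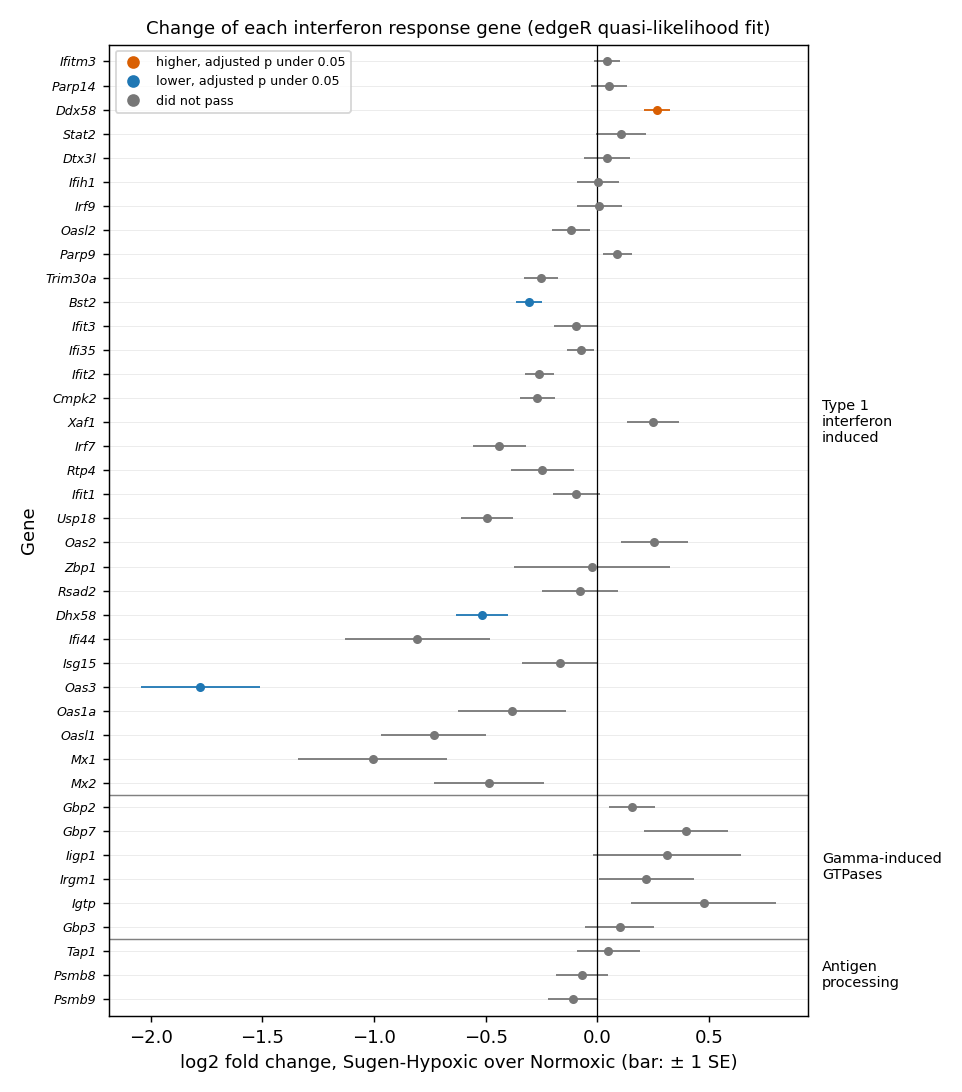
Log2 fold change of each gene, Sugen-Hypoxic over Normoxic, from the edgeR quasi-likelihood fit, with bars of 1 SE. Orange marks the gene called higher (Ddx58), blue the 3 called lower (Oas3, Dhx58, Bst2) and grey the genes that did not pass. The 6 gamma-induced GTPases sit right of 0 with wide bars.

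The gamma-induced GTPases attack the vacuoles of intracellular microbes, and in none of the 6 did the groups separate in CPM. Both treated pools were above both Normoxic pools for 21.3% of all genes tested and below them for 40%. Iigp1 (ENSMUSG00000054072, chromosome 18, 60376027 to 60392634) was at 48.6 and 43.6 CPM in the Normoxic pools and 34.4 and 75.1 CPM in Sugen-Hypoxic replicates 1 and 2. Igtp (ENSMUSG00000078853, chromosome 11, 58199556 to 58207591) was at 29.8 and 28.0 CPM against 24.5 and 52.6 CPM. Irgm1, which regulates the other GTPases of its family, was at 39.2 and 41.2 CPM against 33.8 and 55.8 CPM. In each of these immunity-related GTPases treated replicate 1 was the lowest of the 4 pools and treated replicate 2 the highest.

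The guanylate-binding proteins showed the same order of the treated pools. Gbp7 was at 74.4 and 65.4 CPM in normoxia and 70.2 and 106 CPM after treatment. Gbp3 was at 32.4 and 31.3 CPM against 27.0 and 38.1 CPM, and Gbp2 at 83.9 and 89.9 CPM against 82.5 and 102 CPM. Treated replicate 2 was the highest pool in all 6 genes of the class, against 25.0% of all genes tested. Treated replicate 1 was the lowest in 5 of the class, against 6408 of the 18783 genes tested. The log2 fold changes ran from 0.10 (Gbp3) to 0.48 (Igtp) with a median of 0.27 and adjusted p from 0.220 to 0.707. Igtp overlaps Irgm2 on the same strand and Gbp7 overlaps Gm43802, and reads that fit both genes of such a pair were not counted for either.

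The values for this class turn on which treated pool is used. Without Sugen-Hypoxic replicate 1, all 6 passed as higher with a median of 0.59 (Igtp 0.92, Iigp1 0.76, Gbp7 0.66, Irgm1 0.53). Without Sugen-Hypoxic replicate 2, 0 passed as higher, Iigp1 passed as lower at -0.34 (adjusted p = 0.00707), and the median was -0.15. In both fits the spread came from the Normoxic pair, which was close for these genes, and the lone treated pool was assumed to vary like it. In the fit without replicate 1, 13.4% of all genes were called higher and 12.3% lower, and without replicate 2, 11.9% and 12.5%.

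The antigen processing genes serve the peptide supply of MHC class I. Psmb8 and Psmb9 encode subunits of the immunoproteasome, and Tap1 encodes a chain of the peptide transporter. Psmb8 was at 69.7 and 63.5 CPM in normoxia and 53.6 and 67.7 CPM after treatment. Psmb9 was at 38.5 and 37.8 CPM against 29.8 and 37.7 CPM, and Tap1 at 78.1 and 72.1 CPM against 62.7 and 85.8 CPM. Treated replicate 1 was the lowest pool for all 3 genes, against 6408 of the 18783 genes tested. The log2 fold changes were -0.07 ± 0.12, -0.11 ± 0.11 and 0.05 ± 0.14, and none passed (adjusted p = 0.741, 0.552 and 0.849). The 3 genes lie within 19.5 kb on chromosome 17, where the promoter windows of Psmb9 and Tap1 overlap on opposite strands.

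Side by side, the median log2 fold change was -0.12 for the 31 type 1 induced genes, 0.27 for the 6 gamma-induced GTPases and -0.07 for the 3 antigen processing genes. Above 0 were 10 of 31, 6 of 6 and 1 of 3. The difference between classes was not tested, and the members of a class are not replicates: 25 of the 40 share 10 loci with another member within 1 Mb. In CPM, both treated pools were below both Normoxic pools for 20 members and above them for 1, where 40% and 21.3% of all genes were so placed. After TMM scaling, with factors from 0.967 to 1.03, the counts were 14 below and 5 above, against 31.7% and 30% of all genes.

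For most of these genes the 2 treated pools stood in the same order. Sugen-Hypoxic replicate 2 was above replicate 1 for 33 of the 40 members, against 54.9% of all genes tested, and after TMM scaling for 33 against 49.4%. The count was 24 of 31 in the type 1 class, 6 of 6 in the GTPases and 3 of 3 in antigen processing. The median ratio of replicate 2 to replicate 1 on the log2 scale was 0.23, 0.66 and 0.34 in the 3 classes. Over all genes it was 0.02. Medians of signed ratios do not give the size of a distance, and its size over all genes was not measured. Between the Normoxic replicates the same medians were -0.03, -0.07 and -0.12. There too 1 order prevailed, with replicate 1 above replicate 2 for 29 of the 40 members (72.5%), against 44.9% of all genes. The single ratios of treated replicate 2 over replicate 1 were 2.18 for Iigp1, 2.15 for Igtp, 1.65 for Irgm1, 1.51 for Gbp7, 1.41 for Gbp3 and 1.24 for Gbp2. The other 7 members were lower in replicate 2, with the lowest ratios 0.743 for Rsad2, 0.795 for Oasl1, 0.844 for Ifit3 and 0.850 for Usp18. Both treated pools carry the same labels, 2 males each, and a comparison of 1 pool with 1 pool has no test.

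**Figure D3:**
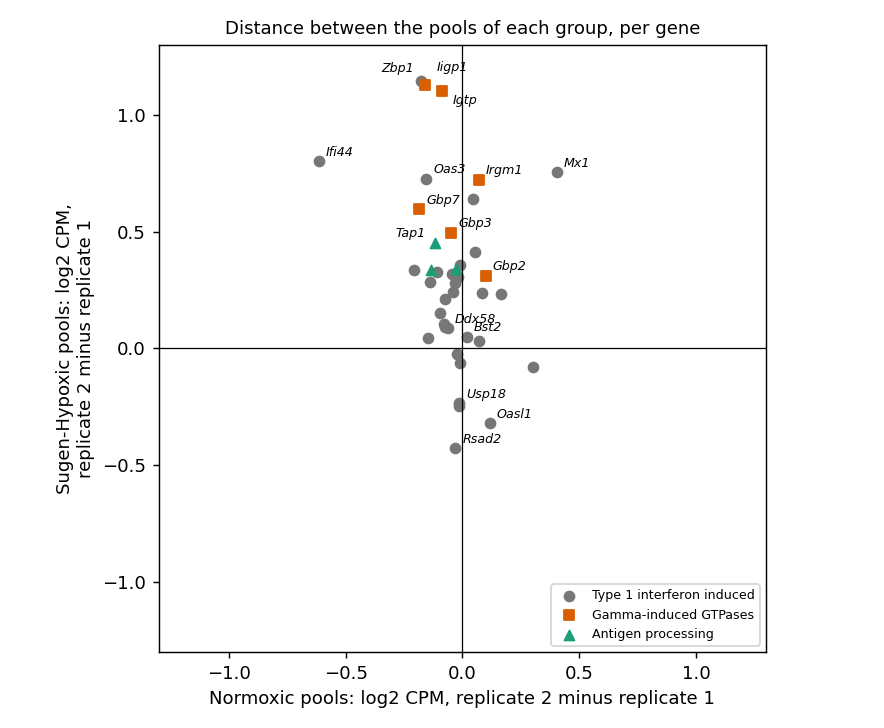
Difference between the pools of a group for each of the 40 genes, as log2(CPM + 0.05) of replicate 2 minus replicate 1, with Normoxic pools on the x axis and Sugen-Hypoxic pools on the y axis, drawn to the same scale. Grey circles are type 1 induced genes, orange squares gamma-induced GTPases and green triangles antigen processing genes. Most points spread up the y axis and little along the x axis, and 33 of 40 lie above 0 on the y axis. Genes outside the 40 are not drawn, so the spread over all genes is not shown.

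Markers of other cell types moved in both directions and are given beside these results. For each count below, the share of all genes tested was 5.51% called higher and 6.01% called lower. Of 13 T and NK cell markers 12 fell, with a summed level of 105 and 87.7 CPM in normoxia and 32.4 and 37.7 CPM after treatment. All 6 B cell markers fell (265 and 246 against 83.8 and 104 CPM), and so did all 6 neutrophil markers (485 and 644 against 265 and 206 CPM). Of the 6 plasmacytoid dendritic markers 3 fell, among them Bst2 itself and Siglech, which went from 5.29 and 3.54 to 1.12 and 0.949 CPM. The summed level of the plasmacytoid list was 404 and 392 against 413.5 and 403 CPM, led by Tcf4, which other cells also express. Of 9 monocyte and macrophage markers 3 fell, Ccr2, Treml4 and Spn. The summed level of the 9 was 544 and 505 against 399 and 472 CPM. Their fitted changes were below 0 for 7 and above 0 for 2. The 2 above 0, Cd68 and Adgre1, at 0.70 and 0.43 on the log2 scale, did not pass (adjusted p = 0.124 and 0.0535). Nor did Cx3cr1, Ly6c2, Nr4a1 and Csf1r, at -0.52, -0.48, -0.48 and -0.11 (adjusted p = 0.0763, 0.109, 0.190 and 0.433). Of 5 alveolar macrophage markers Chil3 rose, by 2.26 ± 0.46 on the log2 scale (adjusted p = 0.0360), and Car4 fell. Marco, Siglecf and Pparg, at -0.22, 0.04 and 0.13, did not pass. The summed level of this list was 903 and 804 against 1656 and 4492 CPM, with Chil3 alone at 684 and 601 against 1545 and 4337 CPM. Of 5 endothelial markers 2 rose, Cdh5 and Emcn (summed level 3019 and 3076 against 4006 and 3474 CPM). Pecam1 and Tek, at 0.34 and 0.24, did not pass, nor did Kdr, at -0.19 and lower in both treated pools. Of 6 dendritic cell markers 0 passed, with fitted changes below 0 for 4 and above 0 for 2. Xcr1 and Clec9a, at -1.45 and -1.25, narrowly missed the threshold (adjusted p = 0.0506 and 0.0537). With DESeq2 both passed as lower, and H2-Aa, at 0.26 in the edgeR fit, passed as higher. Cd68, Adgre1, Xcr1, Clec9a, H2-Aa and the markers named as called were chosen after their values were seen. No marker of these lists was at 0 in any library, and all their calls were lost in the fit without Normoxic replicate 1. In whole-lung RNA fewer cells of a type and less RNA per cell cannot be told apart, and the part of these cells in the falls of Oas3, Dhx58 and Bst2 was not tested.

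Between the 2 treated pools the marker lists differed too. The alveolar macrophage list summed to 1656 CPM in replicate 1 and 4492 CPM in replicate 2, led by Chil3 at 1545 and 4337 CPM. The monocyte and macrophage list summed to 399 and 472 CPM. Replicate 2 was above replicate 1 for 8 of its 9 markers, against 54.9% of all genes tested. The ratios of these 8 ran from 1.10 for Treml4 to 1.78 for Cd68, which was at 61.4 and 109 CPM. Nr4a1 went the other way, at 70.3 and 44.9 CPM. The T and NK list was at 32.4 and 37.7 CPM, the B cell list at 83.8 and 104 CPM, the neutrophil list at 265 and 206 CPM and the endothelial list at 4006 and 3474 CPM. The part of these lists in the distance between the treated pools was not tested.

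Upstream of the members, interferon transcripts were nearly undetected. Of 12 ligand genes 10 had no read in any library. For uniquely placed reads that allows up to 0.0447 to 0.0523 CPM each (3 counts of the library total, counting error only). Multimapping reads were not counted, so the bound leaves out reads that fit more than 1 ligand gene. Ifnb1 had 2 reads in Normoxic replicate 1 and none elsewhere. Ifng, the gamma ligand, had 7 and 6 reads in the Normoxic pools and 1 and 2 in the treated pools. None of the 12 passed the expression filter, so none was tested. Both ligands are named after their values were seen.

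Of 9 receptors and kinases of the pathway 1 rose and 0 fell, against 5.51% of all genes called higher and 6.01% lower. The median of the 9 was 0.03, and -0.02 with upper-quartile factors or -0.04 with unscaled library sizes. Ifngr2, the signalling chain of the gamma receptor, went from 64.9 and 65.9 to 71.9 and 76.8 CPM, a log2 fold change of 0.25 ± 0.06 (adjusted p = 0.0451). Its call was lost with upper-quartile factors (0.0772) and with unscaled library sizes (0.104). Among 8 transcription factors 1 rose and 1 fell. Irf8, a factor of monocytes, dendritic and B cells, fell from 74.1 and 72.2 to 40.4 and 45.3 CPM, a change of -0.70 ± 0.07 (adjusted p = 0.00702). Ciita, the gamma-induced master regulator of MHC class II, rose from 47.8 and 45.9 to 61.8 and 87.4 CPM, a change of 0.74 ± 0.15 (adjusted p = 0.0377).

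Against 5.51% of all genes called higher and 6.01% lower, 0 of 11 sensing adaptors and kinases rose and 1 fell. That was Tlr9, an endosomal DNA receptor of B and plasmacytoid dendritic cells, which went from 13.9 and 12.5 to 4.80 and 7.61 CPM (log2 fold change -1.02 ± 0.22, adjusted p = 0.0406). Of 5 inhibitors of interferon signalling 1 fell, Ptpn6, a phosphatase of blood cells, by 0.51 on the log2 scale (adjusted p = 0.0369).

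Further interferon targets were read from lists outside the 40. Of 30 other type 1 induced genes 0 rose and 6 fell, against 5.51% of all genes called higher and 6.01% lower. The median of the 30 was -0.13. The 6 were Ifi213 at -1.42 and Ifi209 at -1.22, both of the nucleic acid binding PYHIN family, Slfn8 at -1.04, Ifit1bl1 at -0.74, Ifitm1 at -0.49 and the nuclear body gene Sp100 at -0.32 (adjusted p from 0.00468 to 0.0383). Of 15 other gamma-induced GTPases 0 passed in the edgeR test, 1 had an unadjusted p under 0.05, and treated replicate 2 was above replicate 1 in 14. Without Sugen-Hypoxic replicate 1, 8 of the 15 passed as higher, against 13.4% of all genes, and without replicate 2, 4 passed as lower, against 12.5%. Of 12 other antigen processing genes 1 rose and 0 fell. That was Erap1, a peptide-trimming enzyme, at 0.29 ± 0.06 (adjusted p = 0.0384), which did not pass with upper-quartile factors (0.0633) or unscaled library sizes (0.0826). Of 5 tested gamma chemokines and markers 1 fell, Acod1, which makes itaconate in activated myeloid cells, from 2.87 and 3.38 to 0.593 and 0.612 CPM (log2 fold change -2.30 ± 0.25, adjusted p = 0.00832).

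All calls on members rested on both Normoxic pools. Without Normoxic replicate 1, 0 of the 4 calls were kept (adjusted p from 0.149 to 0.336), and without Normoxic replicate 2, 0 were kept (0.115 to 0.347). Over all genes 0.0872% were then called higher and 0.041% lower in the first fit, and 0.281% and 0.296% in the second. These fits gave log2 fold changes of -1.68 and -1.86 for Oas3, -0.30 and -0.31 for Bst2, 0.32 and 0.23 for Ddx58 and -0.42 and -0.60 for Dhx58. The 13 calls on the other pathway genes went to 0 and 2, the 2 being Ifi209 and Ifi213. When the labelled male fraction of the pools was added as a term, with 1 degree of freedom left, 0 of 40 members passed, against 0.0213% of all genes called higher and 0.0373% lower. Oas3 was then at -1.61, Ddx58 at 0.35, Dhx58 at -0.35 and Bst2 at -0.31. DESeq2 called 1 member higher and 5 lower, against 8.76% and 8.53% of all genes, and limma-voom 1 and 3, against 5.32% and 6.15%.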

How the data were processed

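For each library the authors deposited unnormalized counts by gene, both unstranded and split by strand. The submitters' processing notes name STAR 2.5.1b, HTSeq and GRCm38.p4; annotation and strandedness were not given in the sources used here. The reverse-strand column held 20.9 to 24.9 times the reads of the forward one and was used. Summary rows stayed out of library sizes and tests (unmapped 6.45 to 7.55%, multimapping 4.51 to 4.54%, no feature 7.73 to 9.98%, ambiguous 1.1 to 1.13% of reads). Multimapping reads were not counted, so members with near-identical copies (Ifit3, Oas1a, Trim30a and the Gbp genes) are uncertain.

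Symbols, coordinates and exon lengths came from GENCODE mouse release 21 of GRCm38, which matched 47224 of 47729 identifiers. CPM is counts per 1000000 gene counts, and levels compared between genes are TPM from the union of a gene's exons. Genes were kept by filterByExpr, scaled by TMM and fitted in edgeR 4.0.16 (R 4.3.3) by its quasi-likelihood method, with the group of each of the 4 libraries as sole predictor, two-sided, with Benjamini-Hochberg adjustment over 18783 genes at 0.05. SEs come from the F statistic. On simulated data the fit recovered 59.7% of 1.5-fold, 89.3% of 2-fold and 99.7% of 4-fold changes, all placed in well-counted genes. The simulated spread followed the trend with level alone and was the same in both groups, so these rates need not hold for the real libraries. Smaller changes were not simulated, so the recovery of changes as small as those of most members is not known. Alternatives were RLE, upper-quartile and no factors, DESeq2 1.42.0, limma-voom (limma 3.58.1), other filters, unstranded counts, a sex covariate and leaving out each library. All 40 members are named, with each library's CPM for those past the threshold and for the 8 most abundant of each class, and up to 6 called genes are named per pathway list; per-library values of further members were added after they were seen. Members and lists were chosen with earlier results of these data known. The genotype arm with mutations was not analysed here, and 1 gene of a pathway list is not reported here.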

Additional observations from a re-analysis of the deposited data

How the results depend on the processing

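The direction of Oas3, Dhx58, Bst2 and Ddx58 was kept in all 13 alternatives, and 4 of the 4 calls were kept with DESeq2, no expression filter, a mean CPM of at least 1, and without either Sugen-Hypoxic replicate. No paired analysis was possible because the labels number the 4 libraries in 1 run and tie none of them across groups; the replicate numbers used here follow deposit order and only name a library.

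The members called lower were 3, all of the type 1 class, and became 5 with upper-quartile factors, 5 with library size only, 5 with DESeq2, 5 with a mean CPM of at least 1, 8 with no expression filter and 0 with the male fraction as covariate. The members called higher went from 1 to 0 with upper-quartile factors, library size only or the male fraction, and to 2 with no expression filter, where Gbp7 joined as the only gamma GTPase (1). The type 1 median went from -0.12 to -0.19 with library size only and -0.039 with the male fraction. Over all genes, 2163 calls became 3248 with DESeq2, 3657 with no expression filter and 11 with the male fraction. No scaling moved the median of all genes by more than the -0.07 of library size only.

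Leaving out each library in turn gave 0 to 11 members higher and 0 to 16 lower. By class these were 0 to 4 and 0 to 13 for type 1, 0 to 6 and 0 to 1 for the GTPases, and 0 to 1 and 0 to 2 for antigen processing. Medians ran from -0.21 to 0.024 over all members, from -0.23 to -0.095 for type 1, from -0.15 to 0.59 for the GTPases and from -0.23 to 0.08 for antigen processing, and calls over all genes from 25 to 5101. Zbp1, at -0.02, reversed to 0.43 (adjusted p = 0.0353) without Sugen-Hypoxic replicate 1 and was -0.69 without replicate 2. Iigp1, at 0.31, reversed to -0.34 without replicate 2 and was 0.76 without replicate 1. With 1 library left out, an arm of 1 sample borrows the spread of the other pair.

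The lowest read count of any member in any library was 54, for Mx1, and calls by depth were not tested.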
